A study of Mus musculus with 144 samples.

Results

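The genes described here are the mouse cytochrome P450 genes of families 1 to 4, measured in liver. They are the rows of the deposited gene count table whose symbol is Cyp, a family number from 1 to 4, a subfamily letter and a gene number. Symbols that mark a pseudogene (-ps) were left out, and so were Cyp4a10 and Cyp4a14. The rule kept 79 of 51912 rows: 3 genes of family 1, 48 of family 2, 9 of family 3 and 19 of family 4. The largest subfamilies are Cyp2c with 15 genes, Cyp3a with 9, Cyp4f with 9, Cyp2d with 8 and Cyp2j with 8.

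The study sequenced the 3′ ends of liver transcripts in male C57BL/6J mice that were kept in 12 h of light and 12 h of dark and fed without restriction. Wild-type liver gave 3 series of libraries: total RNA, nuclear RNA (from nuclei spun through a sucrose cushion) and polysomal RNA (the ribosome-bound fractions of a sucrose gradient, prepared with cycloheximide). The fourth series is total RNA of Bmal1-/- liver, which lacks a transcription factor of the circadian clock. Livers were taken at 6 times of day, ZT2, 6, 10, 14, 18 and 22 (zeitgeber time counts the hours from lights on), and every series has 6 libraries per time, 144 libraries in all. Neither the age of the animals nor the extent of the deleted part of Bmal1 is given in the labels. They also do not say whether the 6 libraries of a group are 6 animals, so that the p-values below measure the spread between these libraries.

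Cytochrome P450 enzymes are heme proteins of the endoplasmic reticulum that oxidise substrates with electrons passed on by P450 oxidoreductase (Por). Families 1 to 3 are best known for the metabolism of drugs, toxins and steroids, and family 4 for the hydroxylation of fatty acids. In liver, many of these genes are induced through nuclear receptors such as CAR (Nr1i3) and PXR (Nr1i2). Others differ between male and female mice, which follows the pattern of growth hormone secretion, and the PAR bZIP factors Dbp, Tef and Hlf link some of them to the clock.

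Many members are close copies of each other, and this limits what a count per gene means. RefSeq promoter sequences (250 bases before to 50 bases after the start of each gene, GRCm38.p6) were matched by symbol for 66 of the 79 members. The promoters of Cyp2a4, a testosterone hydroxylase, and Cyp2a5, the coumarin hydroxylase of mouse liver, were 98.3% identical, with 5 differences over 299 bases. They are shown because both genes changed in most of the comparisons below. Both lie on the plus strand, at chr7:26306942-26307191 for Cyp2a4 and chr7:26835089-26835338 for Cyp2a5, and the 250 bases before the start are printed 5′ to 3′. Capitals mark the letters TTGCATAA, which begin 70 bases before the start of Cyp2a4 and 71 bases before that of Cyp2a5.
Cyp2a4: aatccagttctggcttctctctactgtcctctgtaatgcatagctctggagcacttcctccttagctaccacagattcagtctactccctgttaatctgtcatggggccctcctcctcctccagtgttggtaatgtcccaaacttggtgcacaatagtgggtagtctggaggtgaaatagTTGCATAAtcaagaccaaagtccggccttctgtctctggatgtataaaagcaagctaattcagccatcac
Cyp2a5: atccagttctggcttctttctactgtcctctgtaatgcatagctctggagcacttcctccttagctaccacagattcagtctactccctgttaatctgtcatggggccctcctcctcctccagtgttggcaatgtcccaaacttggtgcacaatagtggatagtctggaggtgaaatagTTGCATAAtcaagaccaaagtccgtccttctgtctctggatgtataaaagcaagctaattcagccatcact

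A second pair, Cyp2b9 and Cyp2b13, is shown because its promoters were the most alike of all pairs among the 66 members. Their promoters were 99.3% identical, with 2 differences over 300 bases. They lie on the plus strand at chr7:26173159-26173408 for Cyp2b9 and chr7:26061245-26061494 for Cyp2b13, and capitals mark the differing bases.
Cyp2b9: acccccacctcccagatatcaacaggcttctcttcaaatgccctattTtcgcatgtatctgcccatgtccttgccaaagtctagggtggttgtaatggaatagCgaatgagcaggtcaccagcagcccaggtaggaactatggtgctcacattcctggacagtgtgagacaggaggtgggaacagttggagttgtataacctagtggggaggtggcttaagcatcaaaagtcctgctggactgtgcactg
Cyp2b13: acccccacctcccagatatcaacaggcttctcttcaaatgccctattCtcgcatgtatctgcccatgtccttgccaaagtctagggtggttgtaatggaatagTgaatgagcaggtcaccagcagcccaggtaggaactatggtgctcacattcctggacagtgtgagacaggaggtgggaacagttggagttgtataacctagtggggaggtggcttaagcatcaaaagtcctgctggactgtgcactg

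Short motifs were looked for on both strands of the 300-base promoters. TTGCATAA, a variant of the D-box to which PAR bZIP factors bind, was in 6 members (Cyp2a4, Cyp2a5, Cyp2b10, Cyp2b19, Cyp2b23 and Cyp4f14) and in 0.888% of all 27025 promoters in the table. The D-box letters TTATGTAA or TTACGTAA were in 0 members and in 1.23% of all promoters. The E-box letters CACGTG were in Cyp2j6 and Cyp4v3 and in 8.09% of all promoters, and TATAAA was in 29 members and in 15.7%. Whether the 3′ ends of a close pair can be separated by the reads was not tested, so the values of Cyp2a4 and Cyp2a5, Cyp2b9 and Cyp2b13, Cyp3a25 and Cyp3a59, Cyp4a12a and Cyp4a12b, the Cyp3a16, Cyp3a41 and Cyp3a44 group and the Cyp2c and Cyp2d genes are uncertain as to which copy they count.

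The gene counts of a library summed to a lowest, median and highest of 5316601, 7749864 and 9831142 in wild-type total RNA. The same 3 values were 1662449, 3993642 and 6620128 in nuclear RNA, 2578048, 5058210 and 13068044 in polysomal RNA and 4379549, 7875181 and 14281894 in Bmal1-/- total RNA. Levels are given as CPM, a gene's count scaled to a common library total. Since 3′ sequencing counts 1 fragment per transcript end, CPM is not divided by length. In bulk tissue, fewer cells of a type and less RNA per cell cannot be told apart.

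Several libraries stood apart from their labels and are named before the results that rest on them. Arntl (the gene symbol of Bmal1) was at 6.73 ± 5.4 CPM in wild-type and 11.5 ± 2.98 CPM in Bmal1-/- total RNA (SD, n = 36 each), so its 3′ counts were not lower in the libraries labelled Bmal1-/-. A 3′ tag outside the deleted part checks nothing about the deletion. In 1 library of each series at ZT22, Xist, which is transcribed from the inactive X chromosome of females, stood far above the 35 other libraries of its series: 408.4 against at most 2.1 CPM in wild-type total RNA (replicate 5), 4363 against 5.67 in nuclear RNA (replicate 5), 165.3 against 0 in polysomal RNA (replicate 1) and 491.2 against 1.28 in Bmal1-/- RNA (replicate 6). All labels say male. Lung markers (Scgb1a1, Scgb3a2, Sftpc and Sftpb) reached a sum of 929 CPM in polysomal replicate 1 and at most 1.45 CPM in polysomal replicates 2 to 6. Exocrine pancreas markers (Prss2, Cela2a and Cpa1) reached a sum of 1589.6 CPM in 1 polysomal library outside replicate 1, averaged 123 CPM over polysomal libraries numbered 1 to 3 and 0.291 CPM over those numbered 4 to 6, and were at most 2.89 CPM in wild-type total RNA.

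Counts of the members also differed by replicate number. The summed CPM of the 10 members known to be higher in female liver (Cyp2a4, Cyp2b9, Cyp2b10, Cyp2b13, Cyp2c40, Cyp2c69, Cyp3a16, Cyp3a41a, Cyp3a41b and Cyp3a44) averaged 86.9 over the libraries numbered 1 to 3 in wild-type total RNA and 335 over those numbered 4 to 6. The same sum averaged 56.1 and 183 in nuclear RNA and 254 and 343 in Bmal1-/- RNA. In polysomal RNA it ran the other way, with 259 in replicates 1 to 3 and 75.8 in replicates 4 to 6. Single libraries carry part of these means. The Xist libraries had sums of 2224 CPM (total, replicate 5), 1053 CPM (nuclear, replicate 5) and 1205 CPM (polysomal, replicate 1). In Bmal1-/- RNA, replicate 5 at ZT18 had 1052 CPM, and replicate 6 had 840.0 CPM at ZT2 and 319 CPM at ZT18. Comparisons are therefore also given for replicates 1 to 3 and 4 to 6 alone where the sign or call differed.

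Together the 79 members made up a median of 1.33% of the gene counts of wild-type total RNA (lowest 1.05%, highest 1.81%). The median was 1.39% in nuclear RNA, 1.69% in polysomal RNA and 1.75% in Bmal1-/- total RNA. The most abundant member was Cyp2e1, which oxidises ethanol and acetaminophen, with a lowest, median and highest of 1127, 2245 and 3257 CPM over the 36 wild-type total libraries. Cyp2c29, an arachidonic acid epoxygenase, followed with 857, 1471 and 3910 CPM. These ranges overlapped, as did those of Cyp2c29 and of the next members, so the order of neighbours is that of the means alone.

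Cyp3a11, the main PXR-induced drug-metabolising enzyme of mouse liver, came next with 981 ± 472 CPM (SD, n = 36). Cyp2d9, a testosterone hydroxylase of male liver, had 859 ± 269 CPM, Cyp2f2, which activates naphthalene, 855 ± 144 CPM, and Cyp4a12a, an arachidonic acid hydroxylase of male mice, 800.0 ± 299 CPM. Cyp1a2, which oxidises caffeine and is induced through the aryl hydrocarbon receptor, had 652 ± 185 CPM. Its relative Cyp1a1 was near 0, with a highest library of 0.564 CPM in wild-type total RNA. By subfamily, the summed CPM in wild-type total RNA was 3528 ± 977 for Cyp2c, 1815 ± 380.1 for Cyp2d, 1362 ± 523 for Cyp3a, 983 ± 337 for Cyp4a and 608 ± 196 for Cyp2a.

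At the low end, 7 members had 0 counts in all 144 libraries: Cyp2b19, Cyp2b23, Cyp2t4, Cyp2w1, Cyp4a29, Cyp4a30b and Cyp4x1os, the antisense gene of Cyp4x1. The filter on low counts, an average of 10 or more per library, was passed by 49 members in wild-type total RNA, 50 in nuclear, 46 in polysomal and 50 in Bmal1-/- RNA. The members left out by this filter are not part of the counts that follow.

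**Figure D1:**
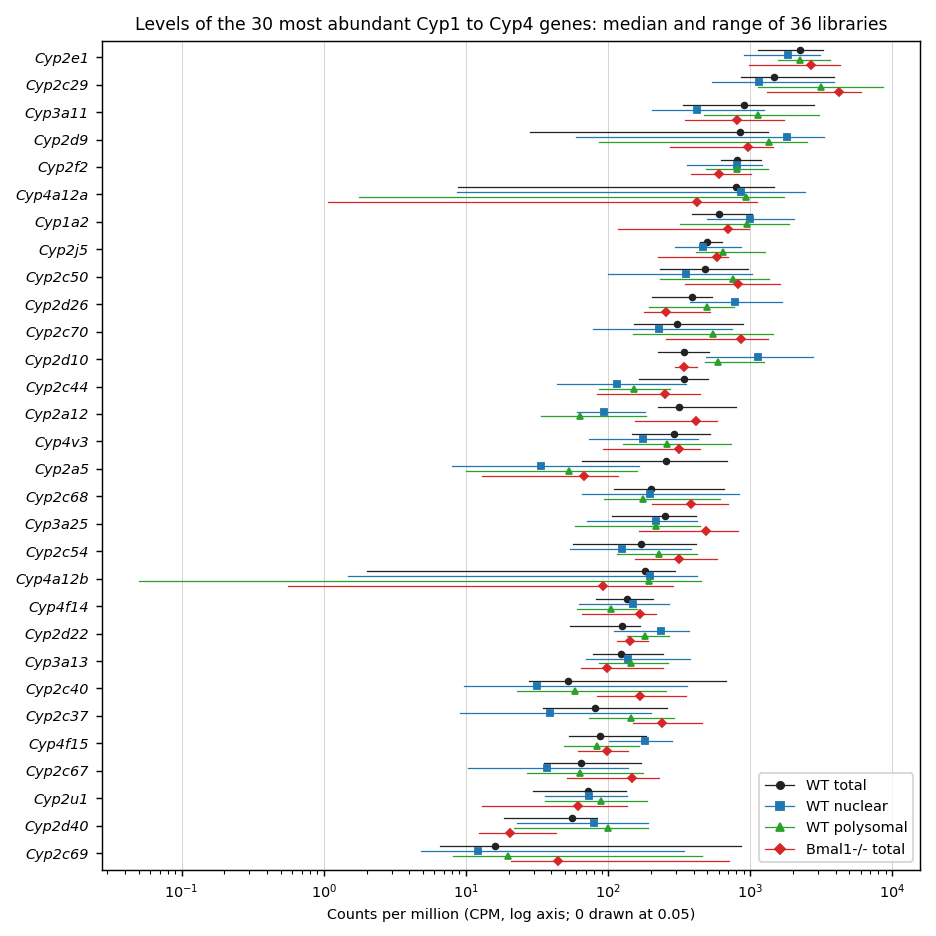
Levels of the 30 members with the highest mean in wild-type total RNA, as CPM on a log axis, in the 4 series; points are medians and lines the lowest to highest of 36 libraries. Cyp2e1 and Cyp2c29 lead in wild-type total RNA with medians of 2245 and 1471 CPM, and the lines of Cyp2d9 and Cyp4a12a reach down to 28.4 and 8.75 CPM, values of 1 library.

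The members that differ most between male and female mice marked the ZT22 libraries with Xist. In wild-type total RNA, 9 of the 10 female-biased members were higher in replicate 5 than in all 5 other libraries at ZT22, and all 3 male-biased members (Cyp2d9, Cyp4a12a and Cyp4a12b) were lower than in all 5. Cyp2a4 was at 343 CPM in that library and at 1.73 to 24.8 CPM in the others. Cyp2c69, a female-biased Cyp2c gene, was at 859 CPM against 6.61 to 98.8, and Cyp3a41a at 90.4 CPM against 0.142 to 1.05. Cyp2d9 was at 28.4 CPM against 558 to 922, and Cyp4a12a at 8.75 CPM against 654 to 1480.2.

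The nuclear library with Xist gave 9 of 10 female-biased members higher and 3 of 3 male-biased members lower, and the polysomal one 8 of 10 and 3 of 3. In the Bmal1-/- library with Xist 1 of 10 was higher and 1 of 3 lower than in its 5 companions. The higher one was Cyp3a41b at 0.693 CPM (5 counts), and the lower one Cyp2d9 at 779.5 CPM, where the lowest companion had 789 CPM. The female-biased Cyp2a4 was lower there than in all 5 companions, at 0.277 CPM (2 counts). Of genes outside the families, 5 of 5 male-biased genes (Elovl3, Hsd3b5, Slco1a1, Cyp7b1 and Mup20) were lower in the Xist library than in its 5 companions in each of the 3 wild-type series, against 1 of 5 in Bmal1-/- RNA. All 4 Y-linked genes looked at were lower in the Xist library of each wild-type series and 0 of 4 in Bmal1-/- RNA.

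**Figure D2:**
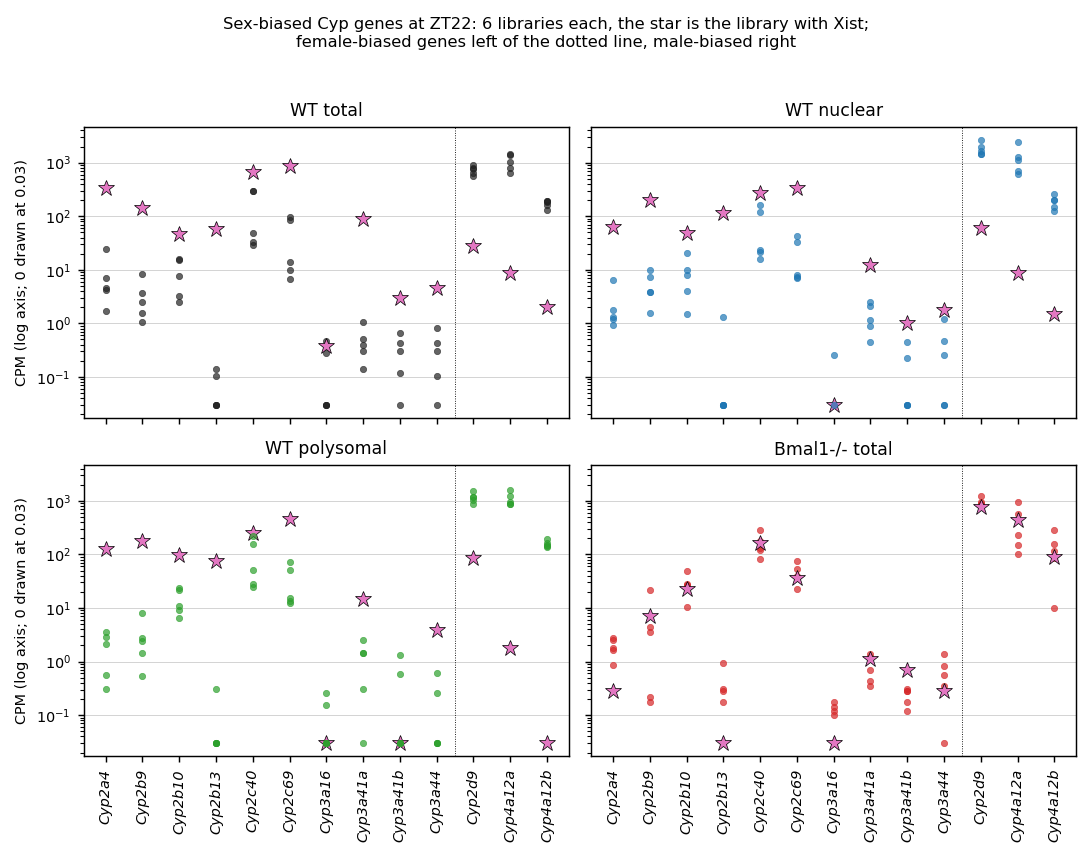
CPM of the 13 sex-biased members in each library at ZT22, on a log axis, by series; the star is the library with Xist above 100 CPM and the circles are the 5 others. In the 3 wild-type series the star lies above the circles for 8 or 9 of the 10 female-biased members and below them for the 3 male-biased members, while in Bmal1-/- RNA it does so for 1 and 1.

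Other libraries had low Cyp4a12a without Xist. After the ZT22 library with 8.75 CPM, the lowest wild-type total libraries were replicate 5 at ZT18 with 88.5 CPM and replicate 4 at ZT14 with 352 CPM, where the female-biased sum was 389 and 582 CPM. In Bmal1-/- RNA, 3 libraries were under 10 CPM: replicate 5 at ZT18 with 1.07, replicate 6 at ZT2 with 3.15 and replicate 6 at ZT18 with 6.01. Their female-biased sums were 1052, 840.0 and 319 CPM, against a median of 271 CPM in that series, and the Y-linked gene Ddx3y was at 91.3, 64.8 and 102 CPM. The counts for Bmal1-/- below are given with and without these 3 libraries, a choice made after their values were seen.

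Total RNA of the genotypes was compared to ask which members differ when the clock gene is deleted. Levels were compared as the mean of the 6 time-point means, by edgeR's quasi-likelihood test with Benjamini-Hochberg adjustment over 12082 genes. Of 49 members tested, 30 passed an adjusted p of 0.05, with 18 higher and 12 lower in Bmal1-/- RNA, where 44.1% of all genes passed. The median log2 change was 0.04 over the members and 0.01 over all genes. Without the 3 libraries low in Cyp4a12a the count was 31, with 19 higher and 12 lower (all genes 45%), and without the Xist libraries it was 32 of 48, with 20 higher (all genes 43.7% and 22.6% higher). Changes of at least 2-fold that passed were found for 7 higher and 6 lower members, against 4.35% of all genes.

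The Cyp2c genes, many of which make epoxides from arachidonic acid, were mostly higher in Bmal1-/- liver. Of 13 tested, 11 rose and 1 fell, with a median log2 change of 0.83, and their summed CPM was 7470.4 ± 1523 in Bmal1-/- against 3528 ± 977 in wild-type RNA (SD, n = 36 each). Cyp2c29 ran from 1319.5 over a median of 4223 to 6070.4 CPM in Bmal1-/- and from 857 over 1471 to 3910 CPM in wild-type libraries. The ranges overlapped, but the Bmal1-/- median lay above the highest wild-type library, and the log2 change was 1.32 (SE 0.10, 2.49-fold, adjusted p = 3.02e-18).

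Cyp2c37 ran from 151 over 239 to 462 CPM in Bmal1-/- and from 34.6 over 81.6 to 262 CPM in wild-type libraries (log2 change 1.40, SE 0.12, adjusted p = 7.87e-15). Cyp2c70, which makes the muricholic bile acids of mice, ran from 254 over 862 to 1341 CPM and from 152 over 304 to 889 CPM (1.19, SE 0.13, adjusted p = 1.93e-11). For both genes the groups overlapped in their tails while most Bmal1-/- libraries were above the wild-type median. Cyp2c55 had a median of 36.2 CPM in Bmal1-/- and 3.48 CPM in wild-type libraries (log2 change 2.63, SE 0.27, adjusted p = 2.11e-12).

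The largest log2 change of any member tested was that of Cyp2c39, at 2.83 (SE 0.34, adjusted p = 2.44e-10). Its levels ran from 1.67 over 6.64 to 140.1 CPM in Bmal1-/- and from 0.696 over 2.52 to 6.06 CPM in wild-type libraries, so the medians differed less than the means. The library with 140.1 CPM is one of the 3 low in Cyp4a12a, and without them the log2 change was 2.28. Cyp2c69 passed with 0.86 (adjusted p = 0.0194) and did not pass without those 3 libraries (0.34, adjusted p = 0.323). Cyp2c44, another epoxygenase, was the 1 Cyp2c gene that fell, from 343 to 252 CPM in the medians (log2 change -0.56, SE 0.09, adjusted p = 9.64e-07).

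Within Cyp2c the rises were unequal between the replicate sets, with 11 higher and 2 lower in replicates 1 to 3 and 7 higher and 1 lower in replicates 4 to 6. In replicates 1 to 3 and 4 to 6 alone, the log2 change was 1.90 and 0.10 for Cyp2c40, 1.47 and 0.10 for Cyp2c67, 1.24 and 0.12 for Cyp2c68 and 1.90 and 0.37 for Cyp2c69. The wild-type means of these sets were 44.7 and 187 CPM for Cyp2c40 and 13.0 and 91.8 CPM for Cyp2c69. Of the members that passed the filter in each set, 36 of 48 passed the test in replicates 1 to 3 (24 higher), where 38.8% of all genes passed, and 27 of 52 in replicates 4 to 6 (14 higher), where 33.5% did.

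The Cyp2a genes moved the other way. All 4 were tested, and 3 fell and 1 rose. Cyp2a5 ran from 13 over 67.7 to 117 CPM in Bmal1-/- and from 66 over 255 to 689.8 CPM in wild-type libraries. The lowest wild-type libraries reached into the Bmal1-/- range, but the mean was lower in Bmal1-/- at all 6 time points, and the log2 change was -2.06 (SE 0.16, 4.18-fold, adjusted p = 9.66e-17). Cyp2a4 changed by -2.41 (SE 0.32, adjusted p = 3.90e-09), and by -1.89 without the Xist libraries, since its wild-type mean of 15.6 CPM rests in part on the library with 343 CPM. Cyp2a22 changed by -1.39 (SE 0.29, adjusted p = 7.93e-05), from medians of 2.1 to 0.955 CPM. Cyp2a12, the other abundant Cyp2a gene, rose by 0.23 (adjusted p = 0.0406), a call that was lost without the 3 libraries low in Cyp4a12a (0.21, adjusted p = 0.0653).

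Of the 8 Cyp2d genes tested, 3 fell and 0 rose. Cyp2d40 ran from 12.3 over 20.5 to 43.1 CPM in Bmal1-/- and from 18.5 over 55.8 to 84.2 CPM in wild-type libraries (log2 change -1.38, SE 0.11, adjusted p = 2.94e-17). Cyp2d26 ran from 179 over 257 to 526 CPM and from 205 over 390.4 to 541 CPM (-0.65, SE 0.07, adjusted p = 1.41e-11). Both overlapped between the groups, and Cyp2d9 was at a log2 change of 0.03.

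In the Cyp3a genes, which oxidise steroids and many drugs, 3 of 6 rose and 1 fell. Cyp3a25 ran from 164 over 488 to 827 CPM in Bmal1-/- and from 106 over 252 to 413 CPM in wild-type libraries (log2 change 0.95, SE 0.12, adjusted p = 4.92e-10), and its close copy Cyp3a59 changed by 0.93 (adjusted p = 1.44e-10). Cyp3a13 fell by 0.35 on the log2 scale (adjusted p = 0.0012). Cyp3a11 was at -0.21 and did not pass (adjusted p = 0.233).

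Cyp2b10, the classic target of CAR, ran from 5.78 over 27.4 to 74 CPM in Bmal1-/- and from 0.877 over 9.54 to 61 CPM in wild-type libraries (log2 change 1.17, SE 0.23, adjusted p = 3.3e-05). Cyp2b9 was at 0.98 and did not pass (SE 0.43, adjusted p = 0.0559), but passed without the Xist libraries (1.46, adjusted p = 0.00222). In replicates 1 to 3 it was at -0.06 and in replicates 4 to 6 at 3.33.

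In family 4, all 3 Cyp4a genes tested changed. Cyp4a12a ran from 1.07 over 425 to 1118 CPM in Bmal1-/- and from 8.75 over 801 to 1480.2 CPM in wild-type libraries, with a log2 change of -1.16 (SE 0.31, adjusted p = 0.00147) and of -1.03 without the 3 libraries lowest in it. Its copy Cyp4a12b changed by -1.07 (SE 0.30, adjusted p = 0.00267). Cyp4a31 rose by 1.16 (SE 0.26, adjusted p = 0.000226), with 2.24 in replicates 1 to 3 and 0.57 in replicates 4 to 6. None of the 3 Cyp4f genes tested by edgeR passed, and Cyp4v3, a fatty acid hydroxylase, was at -0.10.

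Several of the most abundant members did not pass: Cyp1a2 was at -0.10 (adjusted p = 0.522) and Cyp2e1 at 0.18 (adjusted p = 0.0558). Cyp2e1 passed without the 3 libraries low in Cyp4a12a (adjusted p = 0.0302). Cyp2f2 fell by 0.49 on the log2 scale (SE 0.07, adjusted p = 8.40e-08), from a median of 811 to 603 CPM. Cyp2j6, an epoxygenase, rose by 0.69 (adjusted p = 9.18e-11), and the vitamin D hydroxylase Cyp2r1 was at 0.05.

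**Figure D3:**
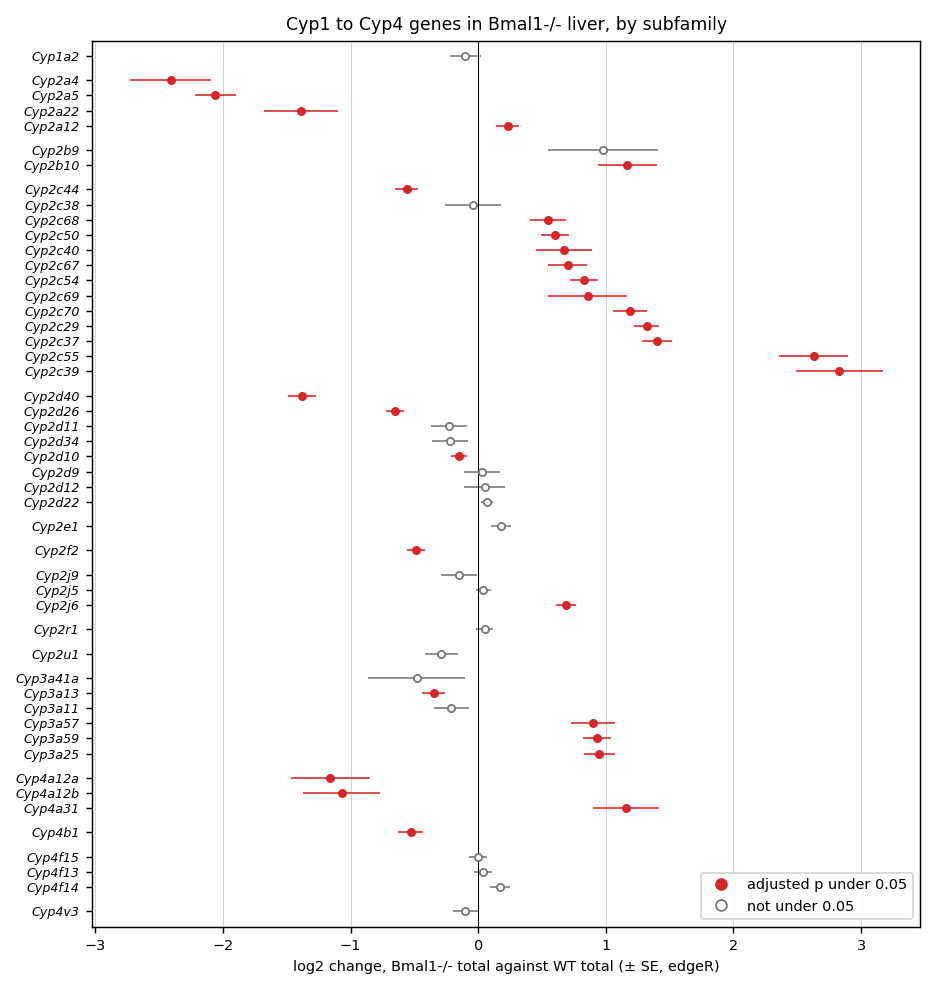
Log2 change of the 49 tested members in Bmal1-/- against wild-type total RNA, grouped by subfamily; bars are standard errors of the edgeR fit, and filled points have an adjusted p under 0.05. The Cyp2c points lie right of 0 except for Cyp2c44 and Cyp2c38, at -0.56 and -0.04, and the lowest points are Cyp2a4 and Cyp2a5 at -2.41 and -2.06.

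Genes that serve or control the P450 enzymes were taken from lists chosen with earlier results of these data known. Over all genes in this comparison, 22.4% were higher and 21.7% lower in Bmal1-/- RNA. Of 7 electron donors and heme genes tested, 4 fell in Bmal1-/- RNA and 0 rose: Por at -0.87 (adjusted p = 4.19e-07), Cyb5b at -0.56, Pgrmc1 at -0.35 and Cyb5r3 at -0.26. Alas1, the rate-limiting enzyme of heme synthesis, was at -0.33 (adjusted p = 0.191). Of 8 receptors and partners, Ahr and Arnt rose by 0.28 and 0.20, while Ppara, Nr1i2, Rxra and Hnf4a fell by 0.38, 0.29, 0.24 and 0.18 on the log2 scale. Nr1i3 did not pass (-0.16, adjusted p = 0.144). Of 6 genes of growth hormone signalling, Socs2, Cish and Stat5b rose by 0.74, 0.71 and 0.29, and Bcl6, a repressor that is higher in male liver, fell by 0.79.

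Markers of cell types moved as well. The sum of 4 hepatocyte markers (Alb, Apoa1, Ttr and Serpina1a) ran from 28510.1 to 88491 CPM in wild-type and from 26147 to 114435 CPM in Bmal1-/- RNA, with 2 of 4 higher and 1 lower. The sum of 5 Kupffer cell markers ran from 87.5 to 707 CPM and from 68 to 387 CPM, with 4 of 5 lower. The sum of 4 stellate cell markers (Reln, Lrat, Dcn and Col1a1) was 246 ± 37.2 CPM in wild-type and 318 ± 36 CPM in Bmal1-/- RNA (SD, n = 36 each), with 2 of 4 higher and 1 lower. Their part in the changes of the members was not tested.

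The nuclear comparison asks where a transcript sits in the cell relative to the whole-tissue pool. Nuclear and polysomal RNA are both set against the same total RNA libraries, so their changes share those libraries. Equal RNA input was used for each library, so a log2 change is a change in the share of a fraction's transcripts, not in amount per cell. Of 49 members tested against total RNA, 13 were higher and 17 lower in nuclear RNA, 30 in all, where 83.8% of all genes passed, 41.6% higher and 42.1% lower. Without the Xist libraries 14 of 47 were higher and 17 lower (all genes 42.8% and 40.8%). The median log2 difference was -0.11 over the members and -0.01 over all genes, and differences of at least 2-fold were found for 6 higher and 8 lower members, against 36.3% of all genes. In this fit, which does not pair libraries, the members passed in 61.2% of cases, a smaller share than over all genes. With same-numbered libraries taken as pairs, more members passed, as the last paragraph gives. The share over all genes is not given for that paired fit, so the smaller share holds for the unpaired fit alone.

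The Cyp2d genes were the group higher in nuclear RNA, with 7 of 8 past the threshold and 0 lower. Cyp2d10 ran from 489 over 1143 to 2785 CPM in nuclear and from 226 over 342 to 511 CPM in total RNA, with overlap between the lowest nuclear and the highest total libraries (log2 difference 1.66, SE 0.12, adjusted p = 1.42e-21). Cyp2d9 had a median of 1811 CPM in nuclear and 845 CPM in total RNA (1.11, SE 0.18, adjusted p = 8.5e-08), and Cyp2d26 medians of 779 and 390.4 CPM (1.02, SE 0.12, adjusted p = 1.25e-11). The summed Cyp2d CPM was 4175 ± 1348 in nuclear and 1815 ± 380.1 in total RNA (SD, n = 36 each).

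Cyp4f13, of a subfamily that hydroxylates leukotrienes and vitamins, ran from 45.3 over 75.3 to 106 CPM in nuclear and from 21.8 over 29.4 to 47 CPM in total RNA, so that the groups overlapped at their edges (log2 difference 1.24, SE 0.09, adjusted p = 3.71e-20). Cyp1a2 was higher by 0.64 (SE 0.13, adjusted p = 5.77e-06). The largest nuclear excess was that of Cyp2c39, with a median of 22.2 CPM in nuclear and 2.52 CPM in total RNA (3.55, SE 0.22, adjusted p = 1.12e-22). It was the 1 Cyp2c gene of 13 that was higher in nuclear RNA, and 8 were lower.

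The Cyp2a genes were lower in nuclear RNA, 3 of 4 past the threshold. Cyp2a5 ran from 7.96 over 34 to 164 CPM in nuclear and from 66 over 255 to 689.8 CPM in total RNA (log2 difference -2.70, SE 0.17, adjusted p = 5.75e-23). Cyp2a12 ran from 60.6 over 93 to 183 CPM and from 226 over 314 to 791 CPM, with no overlap between the groups (-1.79, SE 0.09, adjusted p = 3.57e-28). Cyp2a4 was at -2.04 (adjusted p = 3.69e-06).

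Lower in nuclear RNA were also Cyp2r1 with medians of 2.4 against 7.15 CPM (log2 difference -1.48, SE 0.13, adjusted p = 1.79e-16), Cyp2c44 with 115 against 343 CPM (-1.39, SE 0.12, adjusted p = 8.74e-17) and Cyp2j6 with 17.7 against 38.7 CPM (-1.20, SE 0.09, adjusted p = 6.69e-20). Cyp3a11 ran from 204 over 425 to 1257 CPM in nuclear and from 339 over 909 to 2833 CPM in total RNA (-1.13, SE 0.14, adjusted p = 5.32e-11). Cyp2e1 and Cyp2c29, the most abundant members, were lower by 0.38 and 0.37 on the log2 scale. Among the partner genes Por was 1.24 higher and Alas1 1.64 higher on that scale in nuclear RNA, and Cyb5a was at -1.69. Sums of cell type markers differed too: 131 ± 34.2 CPM in nuclear and 246 ± 37.2 CPM in total RNA for stellate cells, 548 ± 403 and 1446 ± 977 CPM for erythroid cells and 5.52 ± 2.72 and 1.45 ± 0.587 CPM for cholangiocytes (SD, n = 36 each). Their part in the nuclear differences was not tested.

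Polysomal RNA is the pool bound to ribosomes, and its comparison with total RNA asks which transcripts are held there above or below their share of the whole. Of 49 members tested, 20 were higher and 9 lower in polysomal RNA, 29 in all, where 76.0% of all genes passed, 38.8% higher and 37.2% lower. Without the Xist libraries 30 of 47 passed, 20 higher and 10 lower (all genes 76.4%, 38.9% and 37.5%). The median log2 difference was 0.19 over the members and 0.02 over all genes, and differences of at least 2-fold were found for 2 higher and 6 lower members, against 26.3% of all genes. The split depended on the scaling, with 17 higher and 12 lower under median-ratio size factors, where 3975 genes were higher and 4779 lower over all genes. It also depended on the replicate numbers, with 24 higher and 6 lower in replicates 1 to 3 and 9 higher and 20 lower in replicates 4 to 6. Over all genes, 3707 were higher and 3900 lower in replicates 1 to 3, and 4070 higher and 4271 lower in replicates 4 to 6.

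The Cyp2a genes were again lower, 3 of 4 past the threshold. Cyp2a12 ran from 33.6 over 63.3 to 186 CPM in polysomal and from 226 over 314 to 791 CPM in total RNA, with no overlap (log2 difference -2.22, SE 0.12, adjusted p = 5.93e-27). Cyp2a5 ran from 9.96 over 53.1 to 159 CPM and from 66 over 255 to 689.8 CPM, with overlap in the tails (-2.16, SE 0.16, adjusted p = 3.34e-19). Cyp2a12 and Cyp2a5 were lower in both replicate sets, by -1.73 and -1.72 in replicates 1 to 3 and by -2.84 and -2.63 in replicates 4 to 6. Cyp2a4 was at -1.53 (SE 0.39, adjusted p = 0.000331), and did not pass in replicates 1 to 3 (-0.79, adjusted p = 0.101). The summed Cyp2a CPM was 146 ± 51.4 in nuclear, 141 ± 65.7 in polysomal and 608 ± 196 in total RNA (SD, n = 36 each). These transcripts thus made up a smaller share of either fraction than of total RNA.

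The lowest log2 difference in polysomal RNA was that of Cyp2j9, a member of the epoxygenase subfamily Cyp2j, which ran from 0 over 0.565 to 3.01 CPM in polysomal and from 1.04 over 3.88 to 9.59 CPM in total RNA (-2.66, SE 0.25, adjusted p = 2.85e-15). In nuclear RNA Cyp2j9 was higher than in total RNA by 0.78 (adjusted p = 2.92e-06). Cyp2j6 was at -1.10 in polysomal RNA (SE 0.10, adjusted p = 7.35e-17). Cyp2c44 ran from 86.1 over 152 to 274 CPM in polysomal and from 164 over 343 to 504 CPM in total RNA (-1.17, SE 0.08, adjusted p = 3.9e-21).

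Higher in polysomal RNA were 8 of 13 Cyp2c genes, with 1 lower, and 7 of 8 Cyp2d genes, with 0 lower. In replicates 4 to 6 alone 3 Cyp2c genes were higher and 7 lower, and 3 Cyp2d genes were higher and 0 lower. Cyp2c29 ran from 1134 over 3157 to 8634 CPM in polysomal and from 857 over 1471 to 3910 CPM in total RNA (log2 difference 1.07, SE 0.12, adjusted p = 3.74e-13). Cyp2c39 was at 1.71 (SE 0.24, adjusted p = 3.13e-09) and Cyp2d10 at 0.82 (adjusted p = 2.5e-13), with Cyp2d10 medians of 597 and 342 CPM. Cyp2r1, low in nuclear RNA, was at 0.48 in polysomal RNA, with 0.07 in replicates 1 to 3 and 0.77 in replicates 4 to 6. Cyp2c55 passed at 0.96 but was at -0.47 in replicates 4 to 6.

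For other members the sign depended on the replicate set. In replicates 1 to 3 and 4 to 6 alone, the log2 difference between polysomal and total RNA was 1.55 and -2.36 for Cyp2c40, 1.01 and -1.56 for Cyp2c67, 2.19 and -2.20 for Cyp2c69, 1.95 and -2.38 for Cyp4a31, 1.34 and -0.32 for Cyp1a2 and 1.68 and -0.37 for Cyp2c70. In wild-type total RNA the means of these sets were 44.7 and 187 CPM for Cyp2c40 and 3.51 and 12.7 CPM for Cyp4a31. The polysomal libraries lowest in Cyp4a12a were replicate 1 at ZT22 (1.76 CPM), replicate 1 at ZT18 (101 CPM) and replicate 3 at ZT14 (371 CPM), while in total RNA they were replicate 5, replicate 5 and replicate 4 at the same times. The labels do not say whether a polysomal library and the total RNA library of the same number come from the same liver, so the numbering may differ between these series. Erythroid markers (Hba-a1 and Hbb-bs) summed to 847 to 9901 CPM in polysomal and 281 to 5698 CPM in total RNA, and adipose markers to 2.33 to 69.9 and 5.65 to 128 CPM. Their part in these differences was not tested.

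**Figure D4:**
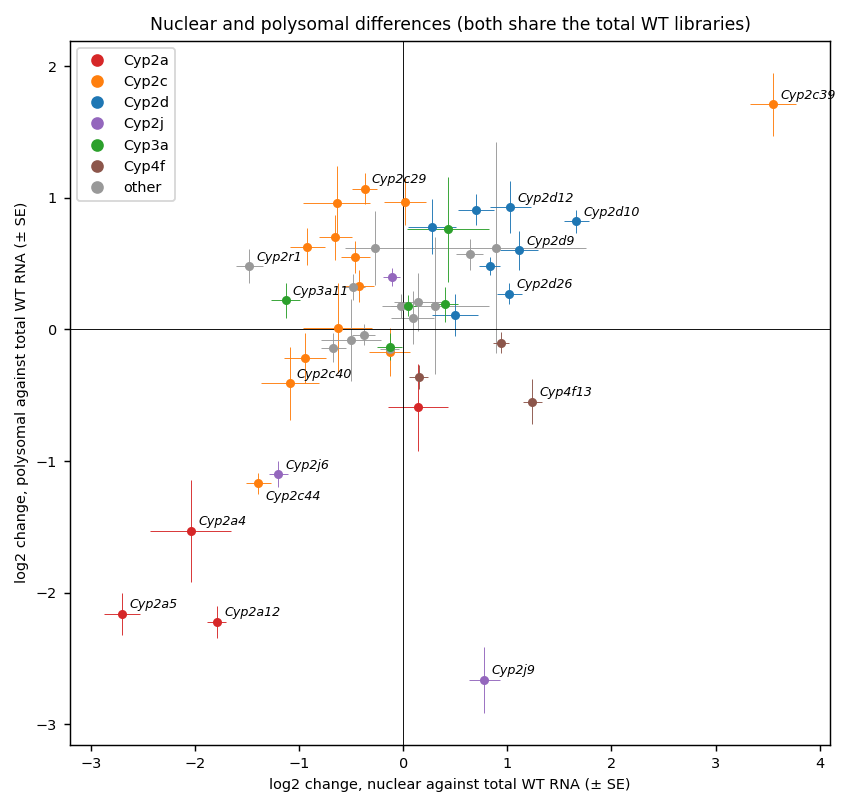
Log2 difference of each tested member between nuclear and total RNA (horizontal axis) and between polysomal and total RNA (vertical axis), with standard errors and colours by subfamily; both axes share the total RNA libraries. Cyp2a5, Cyp2a12 and Cyp2a4 lie at the lower left, at -2.70 and -2.16, -1.79 and -2.22, and -2.04 and -1.53, and Cyp2c39 lies far right at 3.55 and 1.71.

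A 24 h rhythm was tested by fitting a cosine and a sine term to the libraries of 1 series at a time. In wild-type total RNA, 8 of 49 members passed (10 at an unadjusted p under 0.05), where 18.9% of all genes passed. Of the 8, Cyp2a4, Cyp2b10, Cyp2b13, Cyp2c69 and Cyp3a41a are female-biased, with fitted peaks between ZT19.5 and ZT21.6, and none of the 5 passed edgeR's test without the Xist library at ZT22 (Cyp2b13 and Cyp3a41a were then under the filter). The other 3, Cyp2a5, Cyp2u1 and Cyp3a13, passed with and without it, 3 of 47 members where 17.7% of all genes passed.

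Cyp2a5 had a lowest, median and highest of 66, 102 and 298 CPM at ZT2 and 74.6, 186 and 226 CPM at ZT6 in wild-type total RNA. At ZT10 the 3 values were 259, 331 and 689.8 CPM. They were 75.8, 348 and 430.3 CPM at ZT14, 222, 352 and 468 CPM at ZT18 and 95.7, 194 and 284 CPM at ZT22. The libraries at ZT10 and ZT18 lay mostly above those at ZT2 and ZT6, with overlap through single libraries. The fitted curve peaked at ZT14, and its highest point was 3.08 times its lowest (the peak-to-trough ratio; adjusted p = 0.00192).

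Cyp2a5 was rhythmic in polysomal RNA as well, with a ratio of 2.53 and a peak at ZT14.8 (adjusted p = 0.0166). In nuclear RNA the ratio was 2.55 with a peak at ZT13.9 and did not pass (adjusted p = 0.065). The time-point means in nuclear RNA were 23.4, 24.6, 69.8, 40.3, 55.8 and 33.8 CPM from ZT2 to ZT22. In Bmal1-/- RNA the means stayed between 54.3 and 73.9 CPM and the ratio was 1.03 (unadjusted p = 0.988). The difference in rhythm between the genotypes did not pass edgeR's interaction test (adjusted p = 0.0669). It passed without the 3 Bmal1-/- libraries low in Cyp4a12a (adjusted p = 0.0311) and with the replicate number as a block (adjusted p = 0.0316). It did not pass with time as a factor (adjusted p = 0.26) or without the Xist libraries (adjusted p = 0.0643). Nor did it pass in replicates 1 to 3 (adjusted p = 0.0788) or 4 to 6 (adjusted p = 0.626).

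Cyp2u1, which hydroxylates long-chain fatty acids, peaked in the light phase. Its lowest, median and highest in wild-type total RNA were 72.3, 94.1 and 124 CPM at ZT2 and 35.9, 55.9 and 78.8 CPM at ZT22, which overlapped slightly. The fitted peak was at ZT6.13 with a ratio of 1.63 (adjusted p = 0.0372). In polysomal RNA it was at ZT6.94 with a ratio of 1.88 (adjusted p = 0.0017), where the mean was 117 CPM at ZT2 and 58.9 CPM at ZT18. In Bmal1-/- RNA the ratio was 1.2, and the difference in rhythm did not pass (adjusted p = 0.347).

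Cyp3a13 peaked late in the dark phase, at ZT20.4, with a ratio of 1.58 (adjusted p = 0.00209). Its lowest, median and highest were 95.4, 109 and 123 CPM at ZT10 and 109.8, 157 and 243 CPM at ZT22, and the ranges overlapped between 109.8 and 123 CPM. In Bmal1-/- RNA the ratio was 1.23, and the difference in rhythm did not pass (adjusted p = 0.599).

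In the other series the counts were small. In nuclear RNA 1 of 50 members passed, Cyp2b13 (10 at an unadjusted p under 0.05), where 5.99% of all genes passed, and 0 of 48 without the Xist library (7 at an unadjusted p under 0.05; all genes 5.62%). In polysomal RNA 3 of 46 passed, Cyp2a4, Cyp2a5 and Cyp2u1 (8 at an unadjusted p under 0.05), where 7.90% of all genes passed, and Cyp2a5 and Cyp2u1 passed without the Xist library (all genes 8.02%). In Bmal1-/- RNA 0 of 50 passed edgeR's test (3 at an unadjusted p under 0.05), where 0.00825% of all genes passed, and DESeq2 was not run for rhythms. A different rhythm between the genotypes was called for 2 of 49 members, Cyp2b10 and Cyp3a41a (6 at an unadjusted p under 0.05), against 5.18% of all genes, and for 0 of 48 by edgeR without the Xist libraries (3 at an unadjusted p under 0.05; all genes 4.99%). With the replicate number as a block the 2 calls were Cyp2b10 and Cyp2a5, and Cyp3a41a had an adjusted p of 0.152.

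**Figure D5:**
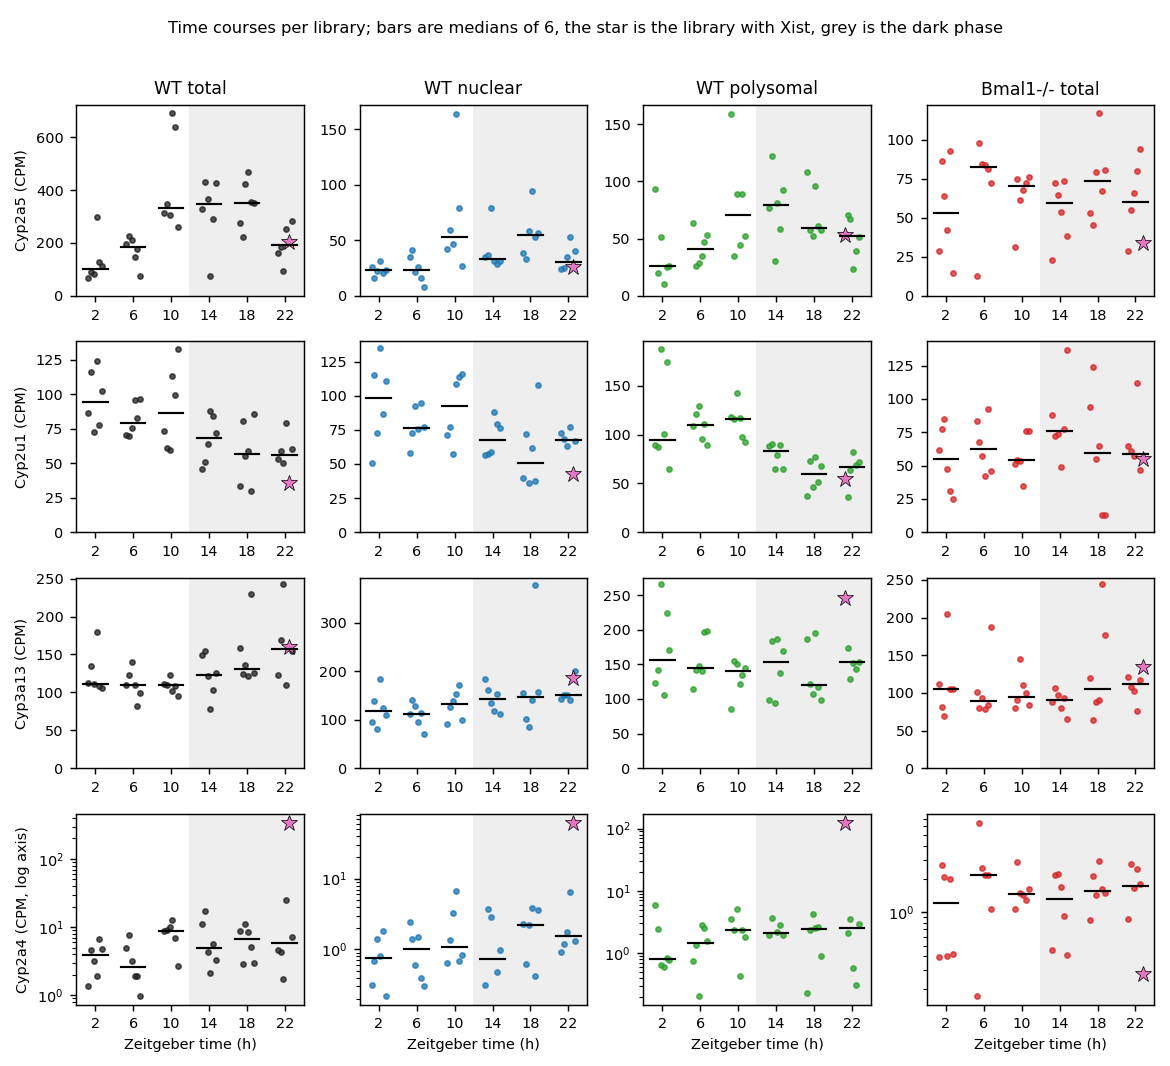
CPM of Cyp2a5, Cyp2u1, Cyp3a13 and Cyp2a4 in every library by zeitgeber time in the 4 series; bars are medians of 6 libraries, the star is the library with Xist above 100 CPM, grey marks the dark phase, and the axis of Cyp2a4 is logarithmic. Cyp2a5 in wild-type total RNA has medians of 102 CPM at ZT2 and 352 CPM at ZT18, Bmal1-/- libraries lie between 13 and 117 CPM throughout, and the highest Cyp2a4 value, 343 CPM, is the starred library.

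Most of the abundant members had small fitted rhythms in wild-type total RNA: the peak-to-trough ratio was 1.34 for Cyp2e1 (adjusted p = 0.111), 1.12 for Cyp2c29 (adjusted p = 0.798), 1.19 for Cyp1a2 (adjusted p = 0.654) and 1.36 for Cyp3a11 (adjusted p = 0.53). Some of the partner genes had larger ones. Por had a ratio of 4.54 with a peak at ZT14 and Alas1 a ratio of 7.12 with a peak at ZT13.3, both near the fitted peak of Cyp2a5. The PAR bZIP factors Dbp, Tef and Hlf peaked at ZT10, ZT12.3 and ZT13.3 with ratios of 95.4, 5.79 and 1.92, and Nr1i3 at ZT14.6 with 2.15. Rhythms in wild-type total RNA were called by edgeR for 4 of 4 genes of the list of PAR bZIP factors and Nfil3. They were called for 5 of 8 receptors and partners and 2 of 7 electron donors and heme genes, where 18.9% of all genes passed. In Bmal1-/- RNA 0 of 4, 0 of 8 and 0 of 7 were called, where 0.00825% of all genes passed. The lack of calls in Bmal1-/- RNA is therefore not particular to these lists. By edgeR's interaction test, the rhythm differed between the genotypes for Dbp (adjusted p = 5.42e-13), Por (adjusted p = 0.0101) and Alas1 (adjusted p = 0.0112), where 5.18% of all genes passed. Dbp also passed in replicates 1 to 3 and 4 to 6 alone (adjusted p = 9.41e-06 and 1.96e-05). Por and Alas1 passed in replicates 1 to 3 (adjusted p = 0.0124 and 0.034) and not in replicates 4 to 6 (adjusted p = 0.286 and 0.09). With time as a factor Alas1 did not pass (adjusted p = 0.116).

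The deposited counts per polyadenylation site were compared as well, and whether each listed site is a true transcript end was not tested. Of the authors' filtered list of polyadenylation sites, 94 lay in 36 members (positions as in that list, mouse build mm10), and usage is the percentage of a gene's site counts that fall on a given site. Of 52 member sites tested in Bmal1-/- against wild-type total RNA, 9 differed in 5 of 21 genes, where 8.58% of all sites differed. Differences of at least 5 percentage points were those of Cyp2d40 alone, at 2 sites. The share at the distal site on the minus strand (chr15:82759824-82760037) was 81.8% ± 8.58 in wild-type and 54.1% ± 15.4 in Bmal1-/- RNA (SD, n = 36 each, adjusted p = 2.49e-12), and the complementary site rose from 18.2% to 45.9% (adjusted p = 4.31e-09). Cyp2d40 is also the Cyp2d gene that fell most in level.

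Between fractions, usage differed at 31 of 45 member sites in nuclear RNA, in 14 of 19 genes, where 78.8% of all sites differed. In polysomal RNA it differed at 30 of 46 sites, in 15 of 19 genes, where 70.4% of all sites differed. At the Cyp3a59 site chr5:146095934-146095960 on the plus strand, usage was 30.4% ± 14.7 in total, 68.9% ± 13.9 in nuclear and 9.52% ± 13.4 in polysomal RNA. It was higher in nuclear RNA (adjusted p = 1.58e-13) and lower in polysomal RNA (adjusted p = 1.05e-06), and it lies upstream of the gene's other tested sites. Usage of the site chr5:146113139-146113186 was 38.6% in total and 8.4% in nuclear RNA (adjusted p = 2.14e-16).

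The Cyp1a2 site chr9:57677174-57677459 on the minus strand held 27% ± 6.38 of the counts in total, 46.2% ± 6.73 in nuclear (adjusted p = 2.02e-12) and 48.8% ± 8.6 in polysomal RNA (adjusted p = 8.04e-13). In single libraries it ran from 3.03% to 39.6% in total and from 33.5% to 62.7% in nuclear RNA, so the ranges overlapped a little. The Cyp2j6 site chr4:96517698-96517976 held 83.6% ± 4.3 in total and 63.8% ± 12.8 in nuclear RNA (adjusted p = 1.35e-10). For Cyp2c67 the site chr19:39608934-39609013 held 51.4% in total, 25.1% in nuclear (adjusted p = 2.26e-13) and 33.2% in polysomal RNA.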

How the data were processed

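The 144 QuantSeq 3′ libraries form 24 groups of series and time of day, with groups and replicate numbers taken from the sample titles. The authors deposited raw counts per gene and per polyadenylation site, 1 column per library, and these deposited counts were used throughout. The submitters' processing notes name STAR 2.4.2a, HOMER and edgeR and the builds mm10 and GRCm38.p5, with no role or order, and the filter behind the authors' list of 29199 kept sites is not given in the sources used here. That deposited list, whose score column is 0 in every row, gave site positions in these builds. RNA was purified with TRIzol, DNase I and acid phenol-chloroform, per the labels. All 360 pairs of libraries within a group were compared: 0 were identical, and their counts differed by a chi-square of at least 4.35 times its degrees of freedom, so none was counted as a copy.

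All genes that averaged 10 or more counts per library were tested with edgeR 4.0.16 under R 4.3.3, by its robust quasi-likelihood F test after TMM scaling. P-values were adjusted by Benjamini and Hochberg's method over all genes tested, with a threshold of 0.05. Series were compared over the mean of 6 time-point means. Rhythm was a cosine and sine of 24 h within each series, and a different rhythm the interaction of these terms with genotype. The tests were checked on simulated data. CPM was computed here from the raw gene counts and the library's sum of them. Sites were given to genes of the RefSeq table (GRCm38.p6) by position and strand, up to 1000 bp past the gene end: 21237 sites were given to 7140 genes, 205 matched several genes and were not used, and 584 were dropped where summed site counts and the gene count disagreed (a ratio under 0.3 or over 1.5). As a check of the build, 17.3% of sites lay within 25 bp of a gene end and 0.164% did once shifted by 5000 bp. Site usage was tested with edgeR on site counts, with the gene's site total plus 0.5 as offset, for sites holding 5% or more of a gene that has 2 or more of them and averages 50 or more counts. Antisense genes cannot be told apart from their partners unless counting used strand, which the sources do not state for the gene table.

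The genes named are, for each comparison of levels, the 8 largest rises and the 8 largest falls among members past the threshold. For each series they are the 8 largest peak-to-trough ratios past the threshold, and for usage the sites of the 5 genes with the largest difference. A list of members with known roles was added. The members and all gene lists were chosen with earlier results of these data known. Alternatives were median-ratio size factors, an average of 1 or more counts, DESeq2 1.42.0 (levels only), the replicate number as a block, replicates 1 to 3 or 4 to 6 alone, time as a factor, no Xist libraries, no polysomal replicate 1 and, chosen after their values were seen, no Bmal1-/- libraries with Cyp4a12a under 10 CPM.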

Additional observations from a re-analysis of the deposited data

Results flagged for a closer look

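A member with a rhythm call was looked at in each group of 6 libraries, and a group was singled out where its highest or lowest library lay far from the rest by Dixon's criterion. This held for 19 of 96 groups. The members were picked by their rhythm calls, some of which rest on an Xist library, and the groups share libraries. No rate by chance is therefore set beside this count. In wild-type total RNA at ZT22 the library was replicate 5, the one with Xist, for Cyp2b13 (57.3 CPM), Cyp3a41a (90.4 CPM), Cyp2c69 (859 CPM), Cyp2a4 (343 CPM) and Cyp2b10 (47.2 CPM). The Xist libraries were also the ones for Cyp2b13 in nuclear RNA at ZT22 (115 CPM) and Cyp2a4 in polysomal RNA at ZT22 (125 CPM).

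At ZT2 of wild-type total RNA, replicate 4 stood apart for Cyp2b13 (0.376 CPM), Cyp2b10 (25.6 CPM) and Cyp2a5 (298 CPM). At ZT18, replicate 5 stood apart for Cyp2c69 (154 CPM) and Cyp3a13 (229.9 CPM), and at ZT14 replicate 4 for Cyp3a41a (1.21 CPM). Cyp2b13, with a median of 0 CPM, had such libraries at ZT6 (0.565 CPM), ZT14 (1.1 CPM) and ZT18 (1.02 CPM) of wild-type total RNA and at ZT2 (2.17 CPM) and ZT14 (2.96 CPM) of nuclear RNA. In polysomal RNA replicate 1 stood apart for Cyp2a4 at ZT2 (5.89 CPM).

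By edgeR's interaction test, Cyp2b10 and Cyp3a41a had a different rhythm in Bmal1-/- than in wild-type RNA (adjusted p = 0.032 and 0.0213). With time as a factor in that test, Cyp2b10 did not pass (adjusted p = 0.242) and Cyp3a41a did (adjusted p = 0.0132). Without the Xist libraries of both genotypes Cyp2b10 had an adjusted p of 0.0641, and Cyp3a41a was under the filter on low counts and was not tested.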

How the results depend on the processing

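The direction and the side of the threshold of the named log2 changes held in 198 of 216 alternative values for Bmal1-/-, 222 of 230 for nuclear and 213 of 245 for polysomal RNA. Besides the members whose values in the replicate sets stand in the report (Cyp2b9 in Bmal1-/- RNA, and Cyp2c40, Cyp2c67, Cyp2c69, Cyp2c70 and Cyp4a31 in polysomal RNA), signs of values named by the rule turned, where either value passed the test, in replicates 1 to 3 for Cyp1a2 (0.26) and Cyp4v3 (0.26) in Bmal1-/- RNA and for Cyp2b9 (-2.52), Cyp2f2 (0.01), Cyp4f13 (0.11), Cyp4f14 (0.16) and Cyp4v3 (0.39) in polysomal RNA. In replicates 4 to 6 they turned for Cyp1a2 (-0.32) and Cyp2c55 (-0.47) in polysomal RNA. The cause was not tested. The number of rhythmic members in wild-type total RNA was 4 in replicates 1 to 3, 3 in replicates 4 to 6 and 3 without the Xist libraries. In nuclear RNA it was 0 in replicates 1 to 3, 2 in replicates 4 to 6, 3 with time as a factor and 0 without the Xist libraries, and in polysomal RNA 1 in replicates 4 to 6. A different rhythm was called for 0 members in either replicate set and without the Xist libraries, and for 4 without the Bmal1-/- libraries with Cyp4a12a under 10 CPM. Each replicate set holds fewer libraries than the main fit. Apart from the fits without Xist libraries, the share of all genes called is not given for these settings. These rhythm counts therefore show nothing particular to the members. Polysomal usage differed at 17 sites among genes with at least 200 counts, where fewer sites were tested.

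A replicate number was taken to pair libraries where every pair of the same number correlated above 0.1 in its deviations from the group means. Nuclear and total RNA came near this, with 34 of 36 pairs above 0.1 and a mean correlation of 0.343, but the labels name no shared liver and the lowest pair was at -0.034. For Bmal1-/- and polysomal against total RNA, 18 and 1 of 36 pairs were above 0.1, with means of 0.0714 and -0.13. With the replicate number as a block the rhythmic members were 0 in nuclear and 6 in polysomal RNA, and usage differed at 14 sites in Bmal1-/- RNA. The counts of changed members with the block were 33 in Bmal1-/- and 33 in nuclear RNA, and 41 of 49 in nuclear RNA with the 36 same-numbered pairs within time points as the block. The shares of all genes that passed with a block are not given here. Whether the members then passed less often than all genes cannot be read from these counts. Depth limits the rare members, of which 30 of 79 were under the filter in wild-type total RNA.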
